A study of Homo sapiens with 4 samples.

Results

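Nascent RNA of MYC and of the long non-coding RNAs (lncRNAs) around it at 8q24 was compared in HCT116 cells. Cells treated with auxin to deplete the cohesin subunit RAD21 were set against control cells. The genes were chosen by symbol, as MYC, PVT1, CCAT1, CASC8, CASC11 and PCAT1. Of these 6 names, 5 had a row in the deposited table of 60048 genes. CCAT1 had none under that symbol and was not analysed here. MYC encodes a transcription factor that pairs with MAX and drives ribosome production, metabolism and the cell cycle. Its neighbourhood at 8q24 holds few other protein-coding genes and many lncRNAs, and in colorectal cancer cells the stretch upstream of MYC carries large enhancers that bind beta-catenin and TCF7L2. Loops of chromatin held by cohesin, a ring of SMC proteins and RAD21, bring those enhancers near the MYC promoter.

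HCT116 is a human colorectal carcinoma line. All 4 libraries came from cells of the genotype RAD21-mAC, in which RAD21 carries an auxin-dependent degron tag, so the control cells bore the tag too. The control group (2 libraries) received DMSO, and the auxin group (2 libraries) was treated for 3 h with indole-3-acetic acid at 0.5 mM to deplete RAD21. No library came from untagged cells given auxin, so an effect of auxin itself and one of RAD21 loss cannot be told apart. New RNA was labelled for 20 min with the uridine analogue 5-ethynyl uridine (EU) at 0.5 mM, captured and sequenced (EU-seq), and fly S2 RNA was mixed in before the capture. The labels do not say whether the 2 libraries of a group came from separate cultures or whether the line is 1 clone, so the p-values measure only the spread between these libraries, which may be technical. By its title, the study asked how cohesin bears on pause release and elongation.

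Each row of the deposited table gave a signal summed over the whole span of a gene, introns included, on an arbitrary scale. Column totals were between 61135244 and 93113007. Here the columns were brought to a common scale, and a value on that scale is called scaled signal. The values were not read counts, so the depth in reads is unknown and no counting interval can be given. A row nested in another row never exceeded it in any library, in 0 of 5700 pairs on the same strand and in 0 of 7704 pairs on opposite strands, so signal from either strand entered a row. Differences were tested with limma on log2 of the scaled signal plus 1. A gene was called at a Benjamini-Hochberg adjusted p under 0.05 over all 39464 tested genes. At this threshold 0.737% of tested genes were called, 0.408% as lower and 0.329% as higher with auxin, and the median log2 fold change of all tested genes was 0.0013. The scaling brings the typical gene to about no change, so this median was set by it. A change shared by most genes would not show, and lower and higher are relative to the other genes. Both auxin libraries lay below both control libraries in 20.2% of tested genes and above them in 18% of tested genes. The 10 epithelial markers summed to between 60854 and 69060 scaled signal in the 4 libraries, with a median of 125 per kb in control. The 8 fibroblast markers summed to 702 and 889 in control and to 1045 and 1183 with auxin (median 0.299 per kb), and the 8 leukocyte markers to between 1991 and 2166 (median 3.37 per kb). No marker row was at 0 in all libraries, and their part in the results was not tested. CSF1R alone had 1694 to 1902 of the leukocyte sum. The log2 difference was negative in 7 of 10 epithelial markers (median -0.19) and in 3 of 6 tested leukocyte markers. It was negative in 0 of 6 tested fibroblast markers (median 0.45, and 0.062 without control replicate 1). The smallest p in the 3 marker lists belonged to CDH1 (log2 difference 0.55, against the direction of most of its list), COL1A1 (0.53) and CD14 (0.59), and none of the 3 genes was called.

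MYC, the protein-coding gene of the group, gave less nascent RNA with auxin, but the difference did not pass the threshold over all genes. Its row (ENSG00000136997, plus strand, GRCh38 chr8:127736231-127742951) spans 6721 bases and overlaps no other row. Scaled signal was 14633 and 18895 in the 2 control libraries and 10156 and 11637 in the 2 auxin libraries. Every auxin value was below every control value. The mean went from 16764 ± 3014 (SD, n = 2) in control to 10896 ± 1047 (SD, n = 2) with auxin, which is 35% lower. On the log2 scale the difference was -0.61 (SE 0.143, 95% interval -0.93 to -0.29), with a limma adjusted p of 0.105. MYC ranked 577 of the 39464 tested genes by p. In bulk RNA, fewer cells making a transcript and less of it per cell cannot be told apart. Leaving out control replicate 1 gave a log2 difference of -0.80 and leaving out auxin replicate 2 gave -0.71, and the limma adjusted p was then 0.0327 and 0.00633. A fit without 1 library takes the spread from the other group alone and assumes that the lone library varies like it. Without either auxin library limma also set every gene to the spread of its intensity trend, so such p-values are no firmer evidence than that of the full fit.

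PVT1 fell with auxin, and it was the 1 called gene among the 5, beside 0.408% of all tested genes called as lower. PVT1 is a long multi-exon lncRNA downstream of MYC whose promoter competes with that of MYC for shared enhancers and whose locus hosts several microRNAs. Its row (ENSG00000249859, plus strand, chr8:127794541-128187101) spans 392561 bases and starts 51.6 kb after the end of MYC. Scaled signal was 135083 and 126463 in control and 88911 and 96840 with auxin, with no overlap between the groups. The mean fell from 130773 ± 6095 to 92875 ± 5606 (SD, n = 2 each), or by 29.0%. The log2 fold change was -0.49 (SE 0.0838, 95% interval -0.68 to -0.31) with a limma adjusted p of 0.0299. In the table as deposited, PVT1 held the largest value of all genes in both control libraries, 0.172% and 0.163% of the column totals, and ranked 4 and 6 in auxin replicates 1 and 2, at 0.119% and 0.126%. The call was close to the threshold. It was lost without control replicate 1 (log2 difference -0.45, limma adjusted p 0.0758), and on the scale as deposited, with no filter or a stricter one, and without the intensity trend of limma.

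**Figure D1:**
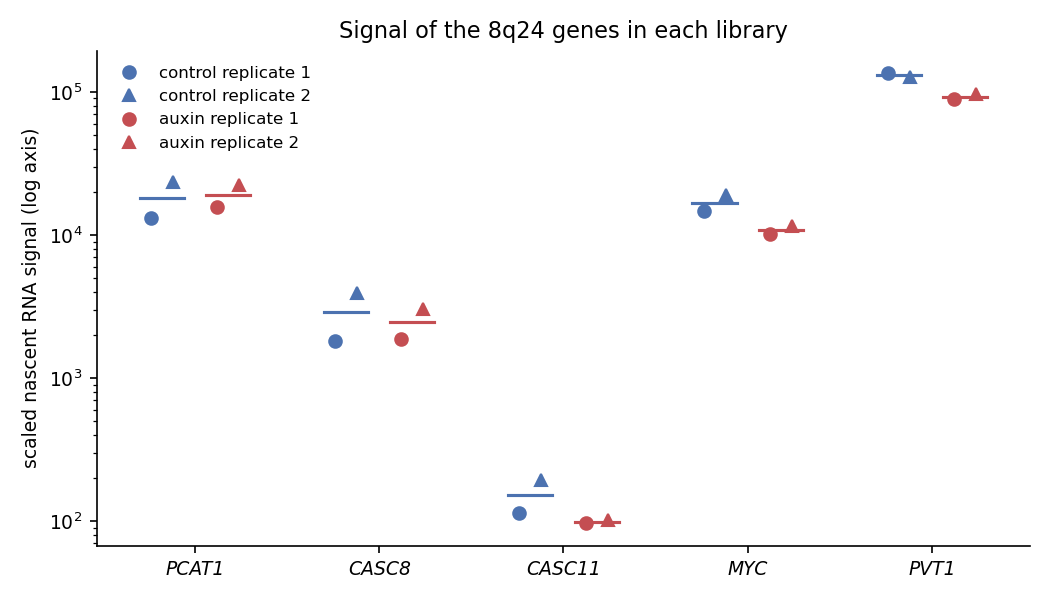
Scaled nascent RNA signal (log axis) of the 5 genes, in order along the chromosome, with 1 point per library and a bar at each group's mean (n = 2). MYC, PVT1 and CASC11 have both auxin points below both control points, beside 20.2% of all tested genes. The points of PCAT1 and CASC8 overlap between the groups.

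Rows nested in PVT1 sample the signal at points along its length. There are 10 of them, 9 of which were tested. All 9 had a negative log2 difference, from -1.17 to -0.30 with a median of -0.60, and in 7 of the 9 the groups did not overlap, beside 20.2% of all tested genes with both auxin libraries below both controls. None of the 9 was called by limma, and 4 had an unadjusted p under 0.05, beside 10.3% of all tested genes. The 95% interval of each of the 9 contained the log2 fold change of the whole gene, -0.49. These rows share their signal with PVT1 and are not further evidence for its change.

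MIR1204, which lies 1.42 kb after the PVT1 start, had 299 scaled signal per 100 bases in control and 188 with auxin (log2 difference -0.67, limma adjusted p 0.336). Its values per 100 bases were 287 and 311 in control and 198 and 177 with auxin, so the groups did not overlap. MIR1205, at 166 kb, had 64.1 per 100 bases in control and 41.1 with auxin. MIR1206, at 214 kb, had 77.4 and 35.5, and its log2 difference of -1.17 was the lowest of the nested rows. MIR1207, at 255 kb, had 89.8 and 67.4. The groups of MIR1207 did not overlap either, with 107 and 73.0 in control and 66.5 and 68.2 with auxin. MIR1208, at 356 kb, had 0.585 in control and 1.38 with auxin and was too low to be tested. It lies in the last 85845 bases of the row, which are beyond the end of PVT1 in the RefSeq annotation. The miRNA rows span fewer than 100 bases each and sample the host transcript, not the mature miRNA. Values per 100 bases may not compare between short and long rows. MIR1206 (59 bases) had 77.4 in control, and the nested row AC103705.1 (2388 bases), which starts just after it, had 19.8. The part of row length in these values was not tested.

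The other nested rows are TMEM75 and the pseudogenes AC103705.1 and RNU4-25P on the opposite strand, and AC084123.1 and the small nuclear RNA row RNVU1-32 on the same strand. TMEM75, at 152 kb, had 41.5 scaled signal per 100 bases in control and 27.9 with auxin (log2 difference -0.57, limma adjusted p 0.290). AC084123.1, at 96.1 kb, had 187 and 151, and its log2 difference of -0.30 was the closest to 0 of the 9. RNVU1-32 and RNU4-25P belong to families with many near-identical copies, so their values are uncertain. The log2 differences were -0.60 for RNVU1-32, -0.43 for RNU4-25P and -0.69 for AC103705.1.

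**Figure D2:**
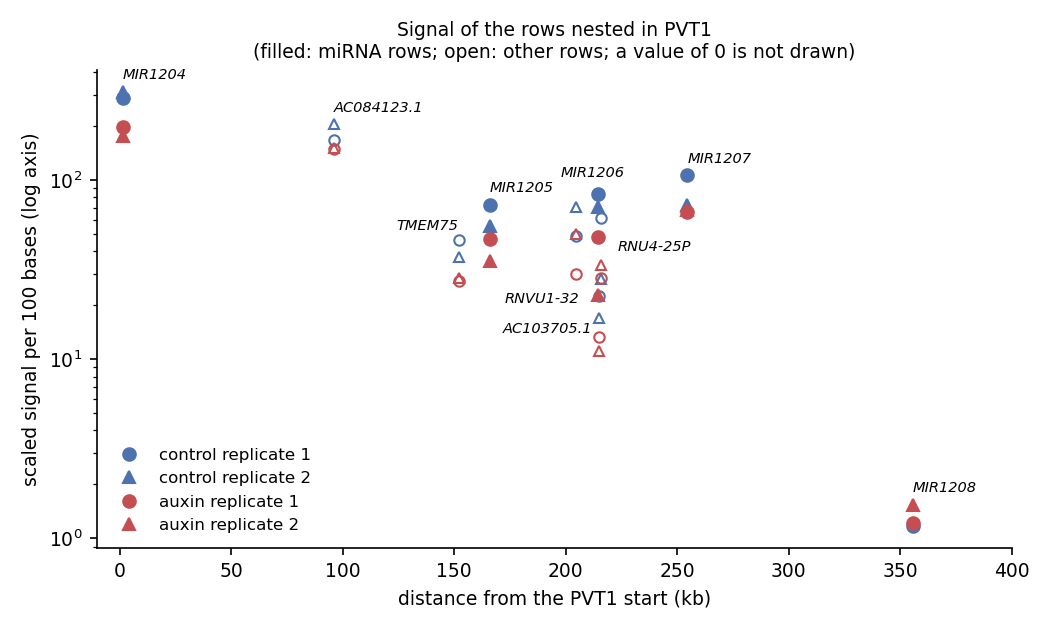
Scaled signal per 100 bases (log axis) of the rows nested in PVT1 against their distance from the PVT1 start in kb, with 1 point per library (filled for miRNA rows, open for other rows). The rows span 59 to 2388 bases, and such values may not compare between short and long rows. Signal is highest at MIR1204, 1.42 kb from the start, and near 1 per 100 bases at MIR1208, 356 kb from the start; of the control points, the one at 0 for MIR1208 is not drawn.

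CASC11, a lncRNA on the minus strand whose start faces that of MYC, was the lowest of the 5. Its row (ENSG00000249375, chr8:127686343-127733967, 47625 bases) ends 2263 bases before the MYC row starts. Scaled signal was 114 and 193 in control and 97.0 and 102 with auxin. The auxin values lay below both control values, but the 2 control libraries differed from each other by 1.69-fold. The means were 153 ± 55.6 and 99.4 ± 3.49 (SD, n = 2 each). The log2 difference was -0.57, against -0.61 for MYC, but its 95% interval ran from -1.25 to 0.11 and the limma adjusted p was 0.595. Leaving out control replicate 1 gave -0.95, and leaving out control replicate 2 gave -0.20. On the scale as deposited the groups overlapped.

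The lncRNAs further upstream, PCAT1 and CASC8, showed no difference beyond the spread between libraries. PCAT1, first described as a prostate cancer transcript, has a row of 734970 bases (ENSG00000253438, plus strand, chr8:126557893-127292862). Scaled signal was 13102 and 23328 in control and 15724 and 22259 with auxin, with both auxin values between the control values. The means were 18215 ± 7231 and 18992 ± 4621 (SD, n = 2 each). The log2 difference was 0.098 (SE 0.239, 95% interval -0.43 to 0.63) with a limma adjusted p of 0.971. It turned negative when control replicate 1 (-0.32) or auxin replicate 2 (-0.15) was left out.

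The PCAT1 row is much wider than the 7861 bases that RefSeq gives the gene and takes in other transcripts. CASC19, a minus-strand lncRNA within it, held 62.5% and 65.5% of the PCAT1 value in the control libraries and 68.1% and 67.7% in the auxin libraries, on 13.9% of its span. PRNCR1, a lncRNA on the plus strand within it, held between 6.0% and 7.61%. The value left after both was 3912 and 6646 in control and 3942 and 5721 with auxin, so most of the PCAT1 value is signal within the CASC19 row. CASC19 itself had 8194 and 15282 in control and 10712 and 15063 with auxin (log2 difference 0.18, limma adjusted p 0.924). RefSeq places CCAT1, the colon cancer associated transcript of the super-enhancer, at chr8:127207382-127219268, and 11586 of its 11887 bases lie within the CASC19 row. The signal of that stretch is thus part of the CASC19 value and was not separated here.

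CASC8 (ENSG00000246228, minus strand, chr8:127289817-127482139, 192323 bases) lies across the enhancer stretch that also holds POU5F1B and CCAT2. Its row shares 3046 bases with the PCAT1 row. Scaled signal was 1830 and 3949 in control and 1869 and 3036 with auxin. Here replicate 2 was above replicate 1 in both groups, by 2.16-fold in control and by 1.62-fold with auxin, and the groups overlapped. The means were 2889 ± 1498 and 2453 ± 825 (SD, n = 2 each), and the log2 difference was -0.17 (SE 0.325, 95% interval -0.90 to 0.55) with a limma adjusted p of 0.955. The interval allows a change of the size of that of MYC. The difference turned positive when control replicate 2 (0.38) or auxin replicate 1 (0.18) was left out. POU5F1B, a retrogene of the pluripotency factor OCT4 within CASC8, had 317 and 808 in control and 289 and 518 with auxin (log2 difference -0.38, limma adjusted p 0.872). CCAT2, also within CASC8, had 5.10 and 13.3 in control and 5.33 and 0 with auxin and was too low to be tested.

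Per kilobase of its row, the order of the 5 genes in control was MYC, PVT1, PCAT1, CASC8 and CASC11. MYC had 2494 ± 448 scaled signal per kb in control and 1621 ± 156 with auxin, and PVT1 had 333 ± 15.5 and 237 ± 14.3 (SD, n = 2 each). MYC exceeded 99.2% of all tested genes per kb over the 4 libraries, and PVT1 exceeded 85.0%. PCAT1 had 24.8 ± 9.84 per kb in control and 25.8 ± 6.29 with auxin, CASC8 had 15 ± 7.79 and 12.8 ± 4.29, and CASC11 had 3.22 ± 1.17 and 2.09 ± 0.0732. In control the ranges of PCAT1 (17.8 and 31.7 per kb) and CASC8 (9.51 and 20.5 per kb) overlapped, and the other neighbours in this order did not. With auxin the order was the same, and no neighbours overlapped. The PCAT1 level is mostly that of CASC19, so its place in the order is that of the row, not of 1 transcript.

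The ratio of each lncRNA to MYC within a library removes the scaling between libraries. The log2 ratio of PVT1 to MYC was 3.21 and 2.74 in control and 3.13 and 3.06 with auxin, so the auxin values lay between the control values. CASC11 was at -6.99 and -6.61 in control and at -6.70 and -6.82 with auxin, again within the control range. CASC8 was at -3.0 and -2.26 in control and at -2.44 and -1.94 with auxin. PCAT1 was at -0.16 and 0.30 in control and at 0.63 and 0.94 with auxin, and it was the only 1 of the 4 ratios whose groups did not overlap (change 0.71). Each change of a ratio is the log2 difference of the lncRNA less that of MYC, so it is not a separate result. The 2-sided exact permutation p was 0.333 for PCAT1, the smallest that 2 libraries against 2 can give, 0.667 for CASC8 and 1 for PVT1 and CASC11. All 4 were 1 after Benjamini-Hochberg adjustment, so this design could not reach the threshold.

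From TRIB1 to ASAP1, the protein-coding genes that bound the interval, the table held 71 rows, 57 of which were tested. PVT1 was the 1 called row, beside 0.737% of all tested genes. An unadjusted p under 0.05 was reached by 11 of 57, beside 10.3% of all tested genes. Rows nested in others share their signal, so the 57 are not independent. Between the end of CASC8 and the end of PVT1, all 14 tested rows had a negative log2 difference, with a median of -0.58, and 11 of the 14 had groups that did not overlap, beside 20.2% of all tested genes. These 14 are MYC, CASC11, PVT1, its 9 nested rows and the lncRNAs AC104370.1 (log2 difference -0.32, limma adjusted p 0.848) and AC108925.1. The 9 nested rows share their signal with PVT1, and 7 of the 11 rows without overlap are among them. The 14 are thus not independent, and the share of all genes is no measure for them. AC108925.1 had 29.8 and 47.1 scaled signal in control and 0 and 20.1 with auxin, and its log2 difference of -3.07 rests on the pseudocount. From PCAT1 to CASC8, 5 of 9 tested rows were negative (median -0.042). Of these, 0 of 9 had groups that did not overlap, beside 20.2% of all tested genes lower and 18% higher. These 9 are PCAT1, CASC8 and rows that lie within them and share their signal, so they are not independent. From TRIB1 to LRATD2, 8 of 12 were negative (median -0.044), and from the end of PVT1 to ASAP1, 9 of 22 (median 0.16). Both auxin libraries lay below both controls in 4 of these 12 rows and in 3 of these 22, beside 20.2% of all tested genes. They lay above both controls in 0 of the 12 and in 5 of the 22, beside 18% of all tested genes. No difference between these stretches was tested.

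Other named rows of the interval did not pass the test with all 4 libraries. TRIB1, a pseudokinase gene, had 13172 and 18028 in control and 11514 and 13139 with auxin (log2 difference -0.33, limma adjusted p 0.516). For TRIB1, leaving out control replicate 1 gave -0.55 and leaving out control replicate 2 gave -0.099. LRATD2, whose row overlaps the start of the PCAT1 row, had 2105 and 1863 in control and 1556 and 1151 with auxin. The groups of LRATD2 did not overlap (log2 difference -0.56, limma adjusted p 0.274, and -0.35 without auxin replicate 2). ASAP1, an Arf GTPase-activating protein gene at the far end, had 38845 and 43080 in control and 25722 and 35459 with auxin (log2 difference -0.44, limma adjusted p 0.262). The difference of ASAP1 was -0.21 without auxin replicate 1, and -0.67 without auxin replicate 2, where it was called. LINC00824, downstream of PVT1, moved the other way, with 127 and 147 in control and 234 and 219 with auxin (log2 difference 0.73, limma adjusted p 0.267). CYRIB, a regulator of Rac signalling, had 30085 and 25295 in control and 28280 and 27469 with auxin (log2 difference 0.015, limma adjusted p 0.993). CCDC26, LINC00861 and GSDMC had log2 differences of 0.16, 0.21 and 0.56, each with a 95% interval that included 0. Of the 21 other 8q24 RNAs listed beside the 5 genes, 18 had a row and 16 were tested. Of these 16, TMEM75 and MIR1204 to MIR1207 are rows nested in PVT1 and share its signal. None of the 16 was called by limma, beside 0.737% of all tested genes, and 6 had an unadjusted p under 0.05, beside 10.3%. The log2 difference was negative in 9, with a median of -0.35, which was -0.10 without control replicate 2, -0.11 without auxin replicate 1 and -0.16 with a mean of at least 50.

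**Figure D3:**
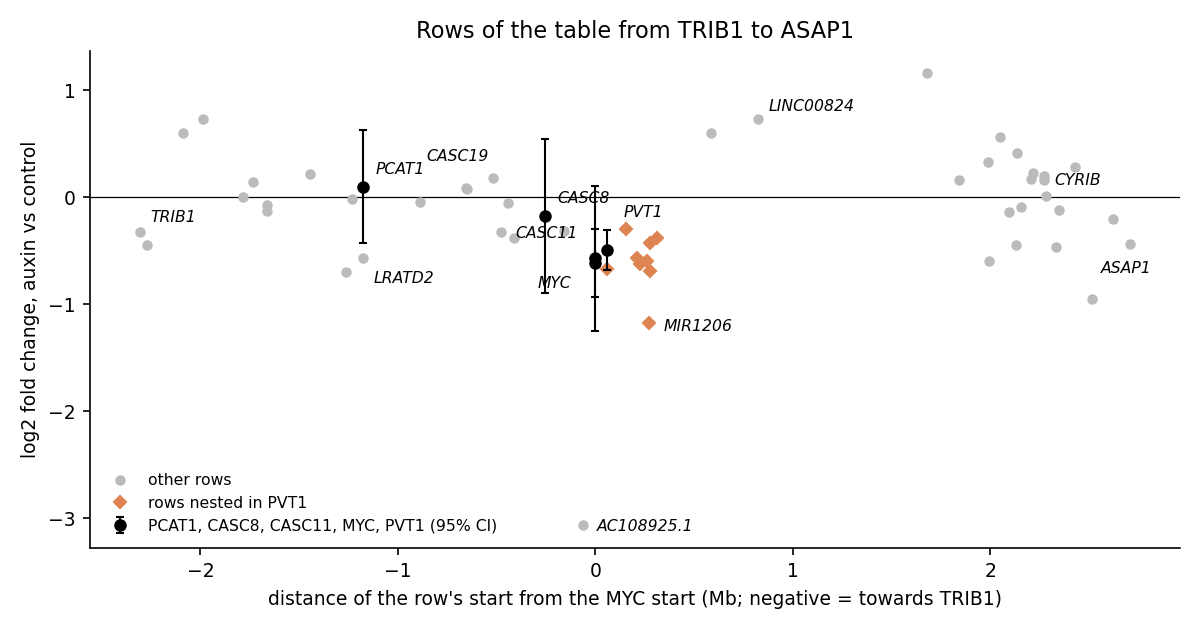
Log2 fold change, auxin against control, of the 57 tested rows from TRIB1 to ASAP1 against the distance of the row's start from the MYC start in Mb. Bars are 95% intervals of the 5 genes. All 14 rows between the end of CASC8 and the end of PVT1 lie below 0, including those nested in PVT1 (diamonds), which share its signal.

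The replicate numbers split part of the interval. Among the 57 tested rows, 14 were at least 1.5-fold higher in replicate 2 than in replicate 1 in both groups, against 3.02% of all tested genes. They were 6 of 12 rows from TRIB1 to LRATD2, 4 of 9 from PCAT1 to CASC8, 1 of 14 from the end of CASC8 to the end of PVT1 and 3 of 22 beyond. Several of these rows lie within others and share their signal, so they are not independent. AC016074.1 lies within AC016074.2, AC024681.2, KNOP1P5 and AC024681.1 lie within LINC00861, and POU5F1B and AC018714.1 lie within CASC8. PCAT1 was 1.78-fold higher in replicate 2 in control and 1.42-fold higher with auxin. The lncRNA row AC016074.2 had 9211 and 21323 scaled signal in control and 13287 and 34082 with auxin. LINC00861 had 2276 and 4885 in control and 2554 and 5851 with auxin. MYC was 1.29-fold and 1.15-fold higher in replicate 2, and PVT1 was at 0.936 and 1.09 of replicate 1. The part of this split in the results for PCAT1 and CASC8 was not tested.

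**Figure D4:**
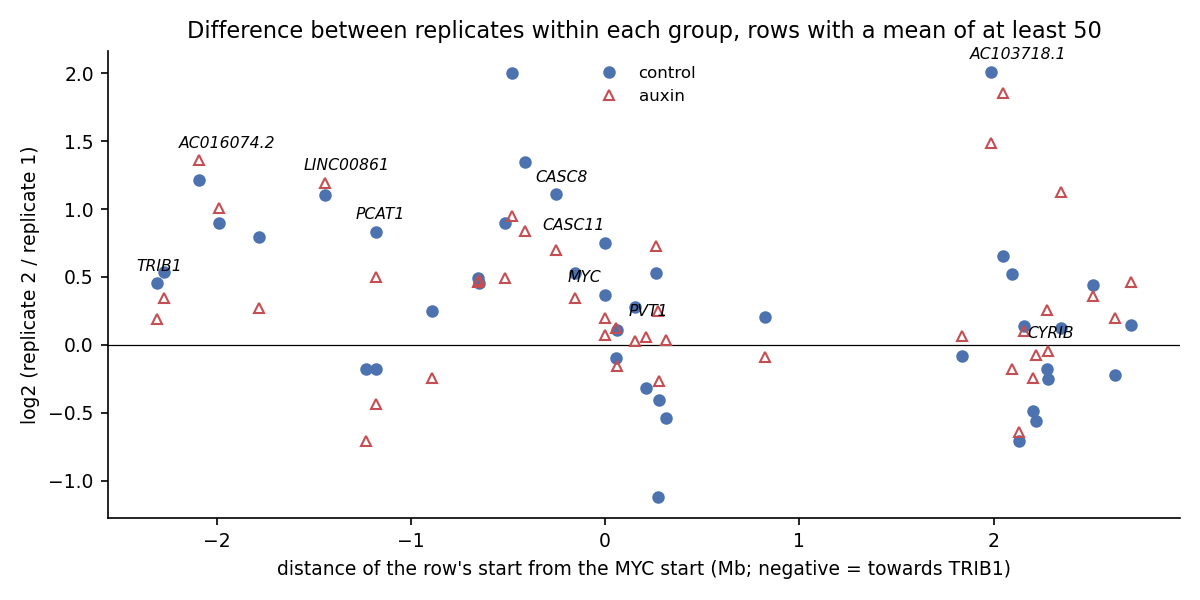
Log2 of replicate 2 over replicate 1 within control (filled circles) and within auxin (open triangles) for the tested rows whose mean was 50 or more, against the distance of the row's start from the MYC start in Mb. PCAT1, CASC8 and LINC00861 lie above 0 in both groups, and PVT1 lies near 0.

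The likeness of the 4 values of 2 genes was measured as the Euclidean distance between their log2 values, each centred on the gene's mean, over genes whose mean scaled signal was 50 or more. The nearest genes to MYC were TIPIN, a replication fork protein gene (distance 0.0177), AC006064.5 and SCARNA10, which overlap and had the same values (0.0332), AC016355.1 and LINC02198. TIPIN had 4521 and 5768 scaled signal in control and 3146 and 3605 with auxin. The nearest genes to PVT1 were CECR2, a chromatin remodelling factor gene (0.0264), AC104472.5, ZC2HC1B, AL158156.1 and HIGD2B. CECR2 had 3842 and 3678 in control and 2586 and 2800 with auxin. Among the 8q24 genes, CASC11 was nearest to MYC (distance 0.288, with 2.47% of genes nearer) and PVT1 came next (0.353, 4.44%). CASC8 (0.770, 53.9%) and PCAT1 (0.812, 60.0%) were farther from MYC than most genes. Measured from PVT1, 12.1% of genes were nearer than MYC and 49.5% were nearer than CASC11. The shares nearer to PVT1 than CASC8 and PCAT1 were 89.9% and 86.2%. These distances rest on 4 libraries and are a description.

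MYC acts through partner proteins that bind E-boxes as dimers with MAX or recruit cofactors. Of 20 network partners 19 were tested, and 0 were called by limma, beside 0.737% of all tested genes. An unadjusted p under 0.05 was reached by 3 of the 19, beside 10.3% of all tested genes, with 15 negative and a median log2 difference of -0.13 (-0.083 with scaling by library size only). MXD4, a MAX partner that opposes MYC, had the smallest p, with 2271 and 1783 scaled signal in control and 4330 and 3200 with auxin (log2 difference 0.89, limma adjusted p 0.0775). It was called without control replicate 1 (1.06) and without auxin replicate 2 (1.11). MAX had a log2 difference of -0.13 (limma adjusted p 0.864), a value looked up for its role. Of 14 regulators of MYC protein stability, 1 was called, beside 0.737% of all tested genes, and 8 were negative (median -0.11, and -0.071 with scaling by library size only). PIM1, a kinase that phosphorylates and stabilizes MYC, fell from 1257 ± 252 to 510 ± 64.1 (SD, n = 2 each), with 1078 and 1435 in control and 465 and 555 with auxin. The log2 fold change of PIM1 was -1.29 (SE 0.206) with a limma adjusted p of 0.0228, which rose above the threshold without control replicate 2.

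Genes that MYC is known to activate were mostly lower with auxin, though 1 of 30 passed the test, beside 0.408% of all tested genes called as lower. With other settings 0 to 3 of the 30 were called as lower, and 15 with the replicate number as a block, where 10.9% of all tested genes were called in either direction. The share negative was 29 of 30, against 55.1% among tested genes averaging 1000 or more, and the median was -0.30 against -0.028 among those genes. Both auxin libraries lay below both control libraries in 26 of the 30, beside 20.2% of all tested genes, and in 12 of the 30 on the scale as deposited. The share of 20.2% covers genes of every level (median scaled signal 237), not only those averaging 1000 or more. An unadjusted p under 0.05 was reached by 15 lower genes and 1 higher gene, beside 10.3% of all tested genes in either direction. TERT, the catalytic subunit of telomerase, fell from 2363 ± 401 to 1164 ± 19.6 (SD, n = 2 each), with 2646 and 2079 in control and 1178 and 1150 with auxin. The log2 fold change of TERT was -1.01 (SE 0.174) with a limma adjusted p of 0.0318, which rose above the threshold without control replicate 1. The values of 4 further genes were picked after they were seen. E2F1, a cell cycle transcription factor, had 5196 and 5967 in control and 2936 and 3569 with auxin, and CDC25A, a phosphatase that activates cyclin-dependent kinases, had 6068 and 7564 in control and 3196 and 4239 with auxin. Their log2 differences were -0.78 and -0.88, both with a limma adjusted p of 0.0557, and both were called with a pseudocount of 10, with robust moderation and without auxin replicate 2. ODC1, the first enzyme of polyamine synthesis, had a log2 difference of -0.11. CCND2, the 1 gene above 0, was at 1.70 and 4.10 in control and 15.1 and 13.4 with auxin.

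Genes that MYC is known to repress mostly had higher values. Of 10, 9 were tested, 2 were called as higher, beside 0.329% of all tested genes, and 0 as lower. The log2 difference was positive in 7 and the median was 0.52, which was 0.32 without control replicate 1 and 0.37 with no filter. Both auxin libraries lay above both control libraries in 6 of the 9, beside 18% of all tested genes. NDRG1, a stress-responsive differentiation gene far downstream on the same chromosome, rose from 19587 ± 4496 to 56440 ± 2857 (SD, n = 2 each), with 22766 and 16408 in control and 54419 and 58460 with auxin. The log2 fold change of NDRG1 was 1.55 (SE 0.142) with a limma adjusted p of 0.00154. CDKN1B, which encodes the cyclin-dependent kinase inhibitor p27, rose from 907 ± 43.0 to 1999 ± 57.5 (SD, n = 2 each), with 937 and 876 in control and 1959 and 2040 with auxin. The log2 fold change of CDKN1B was 1.14 (SE 0.163) with a limma adjusted p of 0.0132. CDKN1A, which encodes p21, had 5523 and 5659 in control and 8100 and 7990 with auxin (log2 difference 0.52, limma adjusted p 0.108), and KLF4 had 1089 and 919 in control and 569 and 438 with auxin (log2 difference -1.0, limma adjusted p 0.0654), both named after their values were seen. These lists were put together from textbook knowledge with earlier results of these data known.

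A list of beta-catenin and TCF genes together with other enhancer factors showed no common direction. All 20 were tested, and 1 was called as lower, beside 0.408% of all tested genes, and 0 as higher. The log2 difference was negative in 9, and the median was 0.025, a sign that turned without control replicate 1 and without auxin replicate 2. SOX9, a transcription factor of intestinal crypts, fell from 5540 ± 1408 to 1378 ± 175 (SD, n = 2 each), with 4544 and 6535 in control and 1254 and 1503 with auxin. The log2 fold change of SOX9 was -1.99 (SE 0.193) with a limma adjusted p of 0.00177. TCF7L2, the TCF factor most associated with the MYC enhancers and named after its values were seen, had 53573 and 57075 in control and 30300 and 41683 with auxin (log2 difference -0.64, limma adjusted p 0.0794). The difference of TCF7L2 was -0.41 without auxin replicate 1, and -0.87 without auxin replicate 2, where it was called. CTNNB1, which encodes beta-catenin, had a log2 difference of 0.063, and CTCF, the factor that halts cohesin at loop anchors, had one of 0.15.

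**Figure D5:**
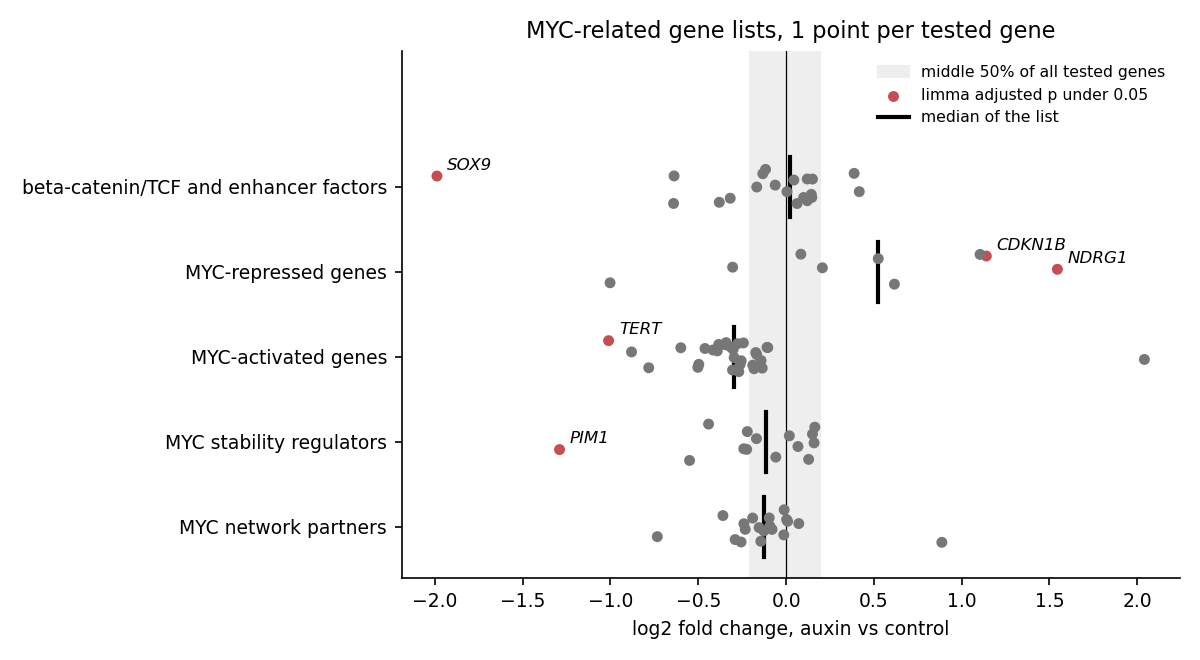
Log2 fold change, auxin against control, of the tested genes of 5 lists, with 1 point per gene, red points for a limma adjusted p under 0.05 and a black bar at each list's median; the grey band holds the middle 50% of all tested genes. The medians are -0.30 for MYC-activated and 0.52 for MYC-repressed genes.

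MYC and its partner MAX bind the E-box CACGTG, which reads the same on both strands. The RefSeq promoters of GRCh38.p14, each 300 bases with 250 before the gene's start, were searched for these 6 letters. They occurred in 9 of the 25 promoters found for the MYC-activated list (36%), in 3 of 8 for the MYC-repressed list (37.5%) and in 2548 of 35116 promoters in all (7.26%). The lists were chosen as known MYC targets and the 35116 promoters were not matched to them, so these shares are of unlike sets. The windows below show the E-box, in capitals, in those listed genes with an unadjusted p under 0.05 and an E-box before the start, 5′ to 3′ on the gene's strand. A match is a description of the letters and not a measured binding site.
TERT, chr5:1295214-1295243, minus strand: gaccgcgcttccCACGTGgcggagggactg
SRM, chr1:11060200-11060229, minus strand: ccggccgggcccCACGTGgcccctggagcg
LDHA, chr11:18394366-18394395, plus strand: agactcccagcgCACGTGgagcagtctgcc
LDHA, chr11:18394464-18394493, plus strand: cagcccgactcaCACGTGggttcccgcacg
GADD45G, chr9:89604857-89604886, plus strand: cgcacccctcccCACGTGgccttctggcac
KLF4, chr9:107489909-107489938, minus strand: ctcccccgccccCACGTGcgccgagtttgt
KLF6, chr10:3785289-3785318, minus strand: cgcggggcgagtCACGTGgggggaggggga

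The genes with these windows went both ways, but they were picked by unadjusted p from lists that themselves mostly went opposite ways. Their directions are thus no result about the E-box. Listed genes whose E-box lies after the start, as in WDR43, MYBBP1A and FBL, are not shown. SRM, the spermidine synthase gene, and LDHA, the lactate dehydrogenase A gene, had log2 differences of -0.42 and -0.28, on the same side as TERT. GADD45G, a growth arrest gene, and KLF6, a Krüppel-like factor gene, had log2 differences of 1.10 and 0.62 (KLF6 0.32 without control replicate 1), and KLF4, of the same family as KLF6, was at -1.0. None of SRM, LDHA, GADD45G, KLF4 and KLF6 passed the limma threshold over all genes with all 4 libraries.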

How the data were processed

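EU-seq libraries of HCT116 RAD21-mAC cells (2 DMSO, 2 auxin) were read from 1 deposited table. It holds a signal per gene and library, which the authors deposited after multiplying each column by a factor that the labels do not explain (smallest steps 0.85, 1.04, 0.73 and 1.36). Single steps were nearly absent from genes spanning 10 kb or more, so a step was not taken for a read. The submitters' processing notes name Trimmomatic 0.39, Bowtie2 2.4.5, deepTools 3.5.1 and the builds hg38 and dm6. How the signal was counted is not given in the sources used here. A strand-specific kit was used, per the labels' protocols. One control column with a misspelt name was assigned by its replicate number.

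A gene was tested if its value was equivalent to 10 or more in 2 or more libraries and its total reached 15. Scaling used unweighted TMM factors (30% of log ratios and 5% of levels trimmed), log2 of the value plus 1 was fitted with R 4.3.3 and limma 3.58.1 (lmFit, eBayes with trend), with Benjamini-Hochberg adjustment. Such fold changes understate the change of low genes. The count models planned for whole reads were not run. Python 3.11.15, pandas 2.3.3 and matplotlib 3.10.9 served for tables and figures. The fit was tested on simulated data.

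The members and lists were chosen with earlier results of these data known. Named were the members, rows overlapping them, the other 8q24 RNAs, in each list the called genes and the one with the smallest p, and the 5 genes nearest to MYC and to PVT1. Alternatives were 3 other scalings, 2 pseudocounts, 2 filters, the replicate number as a block, limma without trend or with robust moderation, a stricter threshold and leaving out each library.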

Additional observations from a re-analysis of the deposited data

How the results depend on the processing

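The log2 difference of MYC was negative under every alternative, from -0.80 to -0.43 when 1 library was left out. That of PVT1 was also negative under every alternative, from -0.56 to -0.43 with 1 library left out. The PVT1 call was lost on the scale as deposited (-0.51, limma adjusted p 1), with no filter (-0.49, limma adjusted p 0.102), with a mean of at least 50 (-0.49, limma adjusted p 0.0815), without the intensity trend (-0.49, limma adjusted p 0.601) and without control replicate 1. CASC8 ran from -0.73 to 0.38, PCAT1 from -0.32 to 0.51, CASC19 from -0.27 to 0.63, POU5F1B from -1.06 to 0.29 and CYRIB from -0.11 to 0.14 with 1 library left out, so the sign of each turned. CASC11 ran from -0.95 to -0.20. The change of the log2 ratio to MYC ran from -0.11 to 0.35 for PVT1 and from -0.15 to 0.23 for CASC11. The number of the 5 genes called was 0 on the deposited scale, with no filter, with a mean of at least 50, without the trend and at an adjusted p under 0.01, and 1 to 2 with 1 library left out. Over all genes, 55 were called on the deposited scale, 82 at an adjusted p under 0.01, 0 without the trend (3208 with an unadjusted p under 0.05) and 217 to 670 with 1 library left out. The calls of TERT, PIM1, NDRG1 and CDKN1B were lost on the deposited scale and without the trend, and that of SOX9 without the trend. With 1 library left out, calls were gained by E2F1, CDC25A, MXD4, KLF4, KLF6, TFAP4, TCF7L2 and ASAP1, and with a pseudocount of 10 or robust moderation by E2F1 and CDC25A. The cause was not tested. Depth in reads is unknown, and with 2 libraries a group only large or steady differences can be called.

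The labels give no reason to pair libraries of the same number, and deviations from the group means correlated at r = 0.231 across all tested genes and at r = 0.462 across the 29160 with a mean of at least 50, as all 5 genes have. Genes are not independent replicates. With the replicate number as a block, limma called 2 of the 5 genes, MYC (-0.61, adjusted p 2.84e-08) and PVT1 (adjusted p 2.71e-06), and 4314 of all genes (10.9%). This fit has 1 residual degree of freedom, and limma set an infinite prior, so each gene took the spread of its intensity trend and these p-values rest on that.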
